A study of Mus musculus with 4 samples.

Results

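Binding of the transcription factor RFX2 in mouse testis was examined at the genes for the peripheral subunits of intraflagellar transport complex B (IFT-B). The 6 genes were Ift20, Ift57, Ift80, Ift172, Traf3ip1 and Cluap1, chosen by name, with no measured value in the rule, from 21938 annotated protein-coding genes. Intraflagellar transport carries building material along the axoneme of cilia and flagella in large protein trains. In IFT-B, a core subcomplex forms the scaffold, and the peripheral subcomplex is attached to it and contacts the motor and cargo. RFX factors bind the X-box, an inverted repeat found in promoters of many ciliary genes, and sperm need intraflagellar transport to build the flagellum.

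RFX2-bound DNA was isolated by chromatin immunoprecipitation and sequenced (ChIP-seq) in 2 replicates from wild type mice of a mixed C57BL/6, 129/Sv and FVB/N background. Per the labels the material was decapsulated testis at postnatal day 29 to 30, whereas the study's text speaks of dissociated germ cells of a younger age. Each RFX2 replicate had an input, which is chromatin without immunoprecipitation, so there were 4 samples in all, and the inputs enter the values only through the authors' peak calling. Whether the replicates came from different mice is not given in the sources used here, so the spread between them may be technical. No expression values were available in the lists to check the tissue against marker genes.

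Each RFX2 replicate had its own peak list, with 39825 peaks in replicate 1 and 21274 in replicate 2. Another list of 2726 peaks, called the combined list here, carried no replicate number and was taken as a call on the pooled reads. It shares reads with both replicates, so its peaks are no further observation. Sequencing depth is unknown for all lists. A gene was called bound when a peak met its promoter, from 1000 bp upstream to 500 bp downstream of any annotated transcription start site (TSS), by at least 1 bp. Scores of the replicates are on a −log10 scale and ranks count from 1 for the strongest peak of a list.

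Of the 6 genes, 4 were bound in the combined list, namely Ift57, Cluap1, Ift172 and Traf3ip1. Among all protein-coding genes the share was 5.26%. The same 4 genes were bound in both replicate lists, where the share over all genes was 9.05%. Every one of the 1003 combined promoter peaks was met by a peak in each replicate list. The count in both replicates is therefore no independent agreement for these 4 genes. In replicate 1 alone 5 of the 6 genes were bound, against 14% of all genes, and in replicate 2 alone 4 of the 6 genes, against 11.3%. Ift80 was bound in replicate 1 only, by a peak near the bottom of the list. Ift20 had no promoter peak in any of the 3 lists.

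The sequences at the summits, the positions of highest signal given by the peak caller, are shown first, because they are where the 4 bound genes can be compared base by base. The X-box was taken from the data, as the self-complementary word of 14 bases present within 100 bp of the summit in the most combined peaks other than those of the 6 genes. This was GTTGCCATGGCAAC, found without a mismatch in 163 of 2722 peaks. The word in second place was found in 11 peaks. Since it reads the same on both strands, a search on 1 strand covers both. The best match in each bound gene's peak is given on the strand of the gene, 5′ to 3′, with the match in capitals and 8 bases on each side in lower case (GRCm38).
Cluap1, chr16:3908608-3908637: gctccacaGTTTCCAGGGCAACctctggcg
Ift57, chr16:49699199-49699228: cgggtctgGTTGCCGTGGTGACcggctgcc
Traf3ip1, chr1:91494581-91494610: gcgcgtccGTTGCCAAGGCCGCgcggccct
Ift172, chr5:31291051-31291080: cttggcggGTTGTCCAGGTAACcacgggag

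In the substitutions that follow, the base of the palindrome comes first, then its position (1 is the 5′-most base), then the base of the site. The site at Cluap1 carried G4T and T8G. The site at Ift57 carried A7G, C11T and A12G. The site at Traf3ip1 carried T8A, A12C and A13G, so that its first 7 bases were intact. The site at Ift172 differed at 4 positions, by C5T, A7C, T8A and C11T. With at most 3 mismatches as the definition of an X-box, Cluap1, Ift57 and Traf3ip1 had one within 100 bp of the summit and Ift172 had none.

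X-boxes by this definition were present within 100 bp of the summit in 75.4% of the 2726 combined peaks (95% Wilson interval 73.8 to 77.0) and in 0.990% of windows of the same length placed 1000 bp to the right. Among the 1003 combined peaks in promoters the share was 58.9% (55.9 to 61.9). These intervals cover counting error only. The windows to the right belong to all combined peaks, most of which lie outside promoters. Of all promoters, 3.23% held an X-box in the 300 bp from 250 bp before the 5′-most TSS, a longer stretch than these windows. At 4 mismatches or fewer, which takes in Ift172, the shares were 78.1% of the promoter peaks and 6.86% of the windows to the right. A best match with exactly 4 mismatches, as at Ift172, was present in 19.1% of the promoter peaks and 5.87% of the windows to the right.

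**Figure D1:**
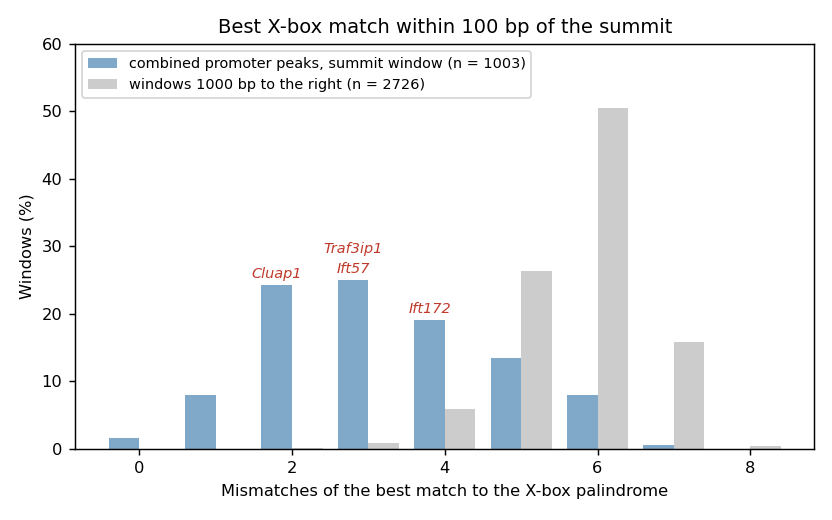
Percentage of windows by the number of mismatches between the X-box palindrome and its best match, for the 200 bp around the summit of 1003 combined promoter peaks (blue) and for windows of the same length 1000 bp to the right of all 2726 summits (grey). Gene names stand above the bar of their own peak: Cluap1 at 2 mismatches, Ift57 and Traf3ip1 at 3, and Ift172 at 4.

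Ift57 encodes a subunit that pairs with the product of Cluap1 within the peripheral subcomplex. The gene (ENSMUSG00000032965) lies on chromosome 16 from 49699233 to 49765126 on the plus strand. Its promoter peak scored 98.4 in replicate 1, where it ranked 687, and 71.8 in replicate 2, where it ranked 276. In the combined list the peak had a −log10 p of 129, a rank of 666 and a 10.8-fold enrichment over local background. This was the strongest of the 4 bound genes by score in every list. The combined peak ran from 49698504 to 49699545, and the replicate 2 peak of 655 bp lay entirely within the replicate 1 peak of 1035 bp.

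The summit at Ift57 lay at −21 bp from the 5′-most TSS, negative values being upstream, and the centre of the X-box was 1.5 bp from the summit. The bases that precede the TSS are shown because they place the X-box, in capitals, directly before the start of the gene.
Ift57, chr16:49699134-49699232: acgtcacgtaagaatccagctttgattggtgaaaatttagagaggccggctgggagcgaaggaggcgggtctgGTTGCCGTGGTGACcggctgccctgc
A further RFX-like word began 1 bp after the TSS base, from 49699234 to 49699246 in the 5′ untranslated region. It was found in a search chosen after the data were seen, for GTTNCC and GGNAAC separated by 0 to 4 bases, with no mismatch and both strands covered. This word, GTTGCCTGGTAAC, has a spacer of 1 base in place of the 2 of the palindrome, and its centre was 28 bp from the summit. Such spaced words were present within 100 bp of the summit in 25.5% of the combined peaks, in 14.8% of those in promoters and in 0.147% of windows to the right. Among the 4 bound genes, Cluap1 was the other one with such a word, at the same site as its X-box.

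Cluap1 (ENSMUSG00000014232), also known as Ift38, lies on chromosome 16 from 3908801 to 3941147 on the plus strand. Its promoter was met by a single peak of 2034 bp in replicate 1, with a score of 96.5 and a rank of 711. In replicate 2 the same interval held separate peaks, one with a score of 47.1 and a rank of 563 over the TSS, and one with a score of 15.6 and a rank of 2263 whose centre lay at −1067 bp from the TSS. The combined peak, with a −log10 p of 105, a rank of 961 and a 12.1-fold enrichment, ran over 2087 bp from 3907571 to 3909657. It was the widest of the 4, against a median of 886.5 bp in the list. The summit lay at −178 bp from the TSS of Cluap1 and the centre of the X-box 0.5 bp from it.

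The combined peak at Cluap1 also met the promoter of 1700037C18Rik (ENSMUSG00000005983), a protein-coding gene transcribed in the opposite direction. The 5′-most starts of both genes were separated by 111 bp, with that of 1700037C18Rik at 3908689. The X-box, from 3908616 to 3908629, lay outside this gap, in the 5′ untranslated region of 1700037C18Rik, and the best match inside the gap had 7 mismatches. A peak does not tell which of these genes it serves. A further X-box with 3 mismatches lay in the same combined peak from 3909394 to 3909407, with its centre 777.5 bp from the summit. Cluap1 thus had 2 X-boxes in its peak, and Ift57 and Traf3ip1 had 1 each. The lengths searched were unequal, with 2087 bp at Cluap1, 1042 bp at Ift57 and 362 bp at Traf3ip1. A match with 3 mismatches or fewer was present in 8.96% of all promoters, each searched over 1501 bp.

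Ift172, which encodes the largest IFT-B subunit, has its gene (ENSMUSG00000038564) on chromosome 5 from 31253277 to 31291116 on the minus strand. The peak over its TSS scored 61.4 in replicate 1, with a rank of 1412, and 51.7 in replicate 2, with a rank of 488. In the combined list it had a −log10 p of 95.02, a rank of 1115 and a 12.7-fold enrichment, the highest fold of the 4. The combined peak ran from 31290614 to 31291520. Its summit lay at +39 bp from the 5′-most TSS and +30 bp from the nearest one, within the 5′ untranslated region. It was the only summit of the 4 located downstream of the nearest TSS of its own gene. The match with 4 mismatches lay in the same untranslated region, with its centre 11.5 bp from the summit. Replicate 1 held a second promoter peak with a score of 10.8, whose centre was at −977 bp from the TSS and for which replicate 2 listed no partner.

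Traf3ip1, also known as Ift54, encodes a subunit that pairs with IFT20 and can bind microtubules. The gene (ENSMUSG00000034292) lies on chromosome 1 from 91494647 to 91529307 on the plus strand. Its peak scored 45.4 in replicate 1, with a rank of 1992, and 12.6 in replicate 2, with a rank of 2893. In the combined list it had a −log10 p of 49.2 and ranked 2429 of 2726, with a 7.53-fold enrichment. It was the weakest of the 4 in all lists, and its combined peak of 362 bp, from 91494354 to 91494715, was the narrowest. The summit lay at −82 bp from the TSS and the centre of the X-box 30.5 bp from it. The sequence before the TSS is shown with the X-box in capitals.
Traf3ip1, chr1:91494528-91494646: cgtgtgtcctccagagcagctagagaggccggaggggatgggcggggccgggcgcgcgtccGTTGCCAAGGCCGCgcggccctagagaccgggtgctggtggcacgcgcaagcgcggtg
The 200 bp around this summit had a G+C content of 73.0%, higher than at 98.3% of the combined promoter peaks, whose median was 59.0%. The G+C content was 64.5% at Ift57, 60.5% at Ift172 and 58.5% at Cluap1.

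**Figure D2:**
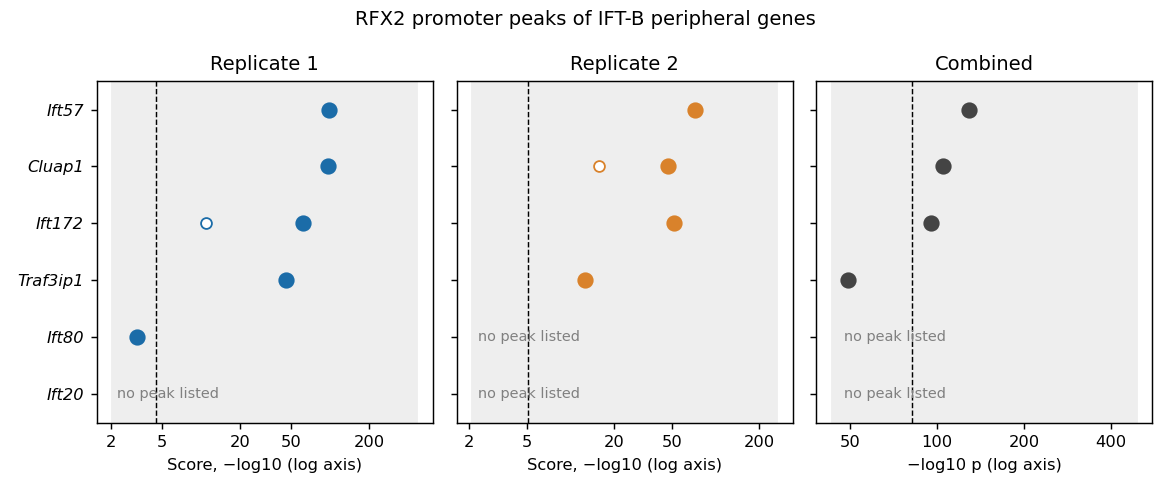
Value of each promoter peak at the 6 genes in the 3 lists, on log axes: the −log10 score in replicates 1 and 2 and −log10 p in the combined list. Filled points are the strongest promoter peak of a gene, open points further promoter peaks, grey areas the range of each list and dashed lines its median. Ift57, Cluap1, Ift172 and Traf3ip1 lie above the median of both replicate lists, and Traf3ip1 lies below that of the combined list.

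The order of the genes was not the same in both replicates. Ift57 came first in both and Traf3ip1 last among the 4, but Cluap1 scored above Ift172 in replicate 1 and below it in replicate 2. Scores in replicate 1 exceeded those in replicate 2 by a factor of 1.19 at Ift172, 1.37 at Ift57, 2.05 at Cluap1 and 3.60 at Traf3ip1. Over the 1003 combined promoter peaks the median factor was 2.08, and the central 80% ran from 1.24 to 3.79. The factor at Ift172 lay just under this range. With 2 replicates, no test of these differences was possible.

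Distances from the summit to the nearest TSS of the bound genes ran from −178 to +30 bp, with a median absolute distance of 56.0 bp. Over all combined promoter peaks the median was 58.0 bp, and 71.5% of the summits lay upstream, against 3 of 4 here. The measures differ, because all promoter peaks were measured to the nearest TSS of any protein-coding gene. The bound genes were measured to their own TSSs only. The Cluap1 summit is closer to the start of 1700037C18Rik at 3908689, and lies downstream of it. These shares are therefore not directly comparable. The distance from the summit to the X-box centre, 0.5 to 30.5 bp in the 3 genes that had one, can be read against a median of 8.5 bp over 2056 combined peaks with an X-box.

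**Figure D3:**
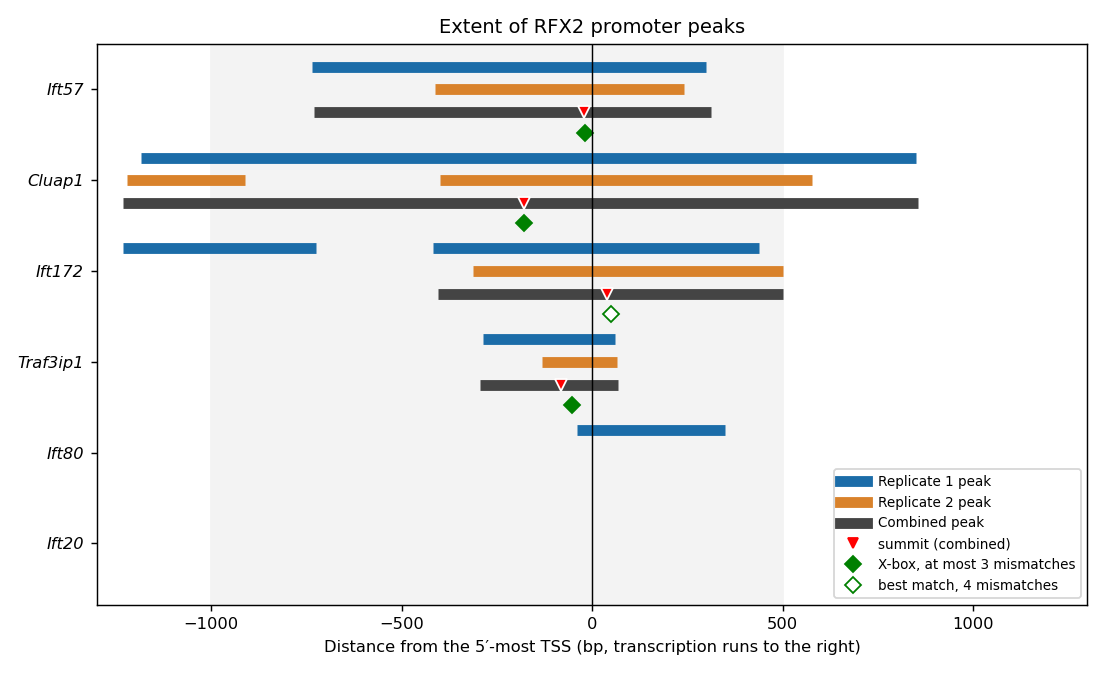
Extent of the promoter peaks at the 6 genes, in bp from the 5′-most TSS and turned so that transcription runs to the right, with the promoter of that TSS shaded. Bars are peaks of replicate 1 (blue), replicate 2 (orange) and the combined list (dark grey), red triangles are summits, diamonds the best match to the palindrome in each combined peak, filled with at most 3 mismatches and open, at Ift172, with 4. The summits lie at −21 (Ift57), −178 (Cluap1), +39 (Ift172) and −82 bp (Traf3ip1).

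Fold enrichment placed these peaks lower in the list than −log10 p did. Folds ran from 7.53 to 12.7 with a median of 11.4, whereas the median was 15.0 over combined promoter peaks and 17.0 over the whole list. Of all combined peaks 19.5% had a fold below 12.7, and of those in promoters 35.1%. Ranked by fold in place of −log10 p, Ift57 moved from 666 to 2421, Cluap1 from 961 to 2280, Ift172 from 1115 to 2194 and Traf3ip1 from 2429 to 2674. Promoter peaks in general had low folds, with 61.7% of them below the median of the whole list. Among the 1003 promoter peaks alone, Ift57 moved from 363 to 769 and Cluap1 from 492 to 692. Ift172 moved there from 545 to 650 and Traf3ip1 from 931 to 958. Each gene was then set beside the 100 promoter peaks closest to it in −log10 p. Of these, 10 had a lower fold than Ift57, 19 a lower fold than Traf3ip1, 31 a lower fold than Cluap1 and 45 a lower fold than Ift172. All 4 folds were thus below the median of their neighbours, that of Ift57 by the most and that of Ift172 by the least. Neither the reads nor the local background behind these folds were listed, and the part of either was not tested.

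**Figure D4:**
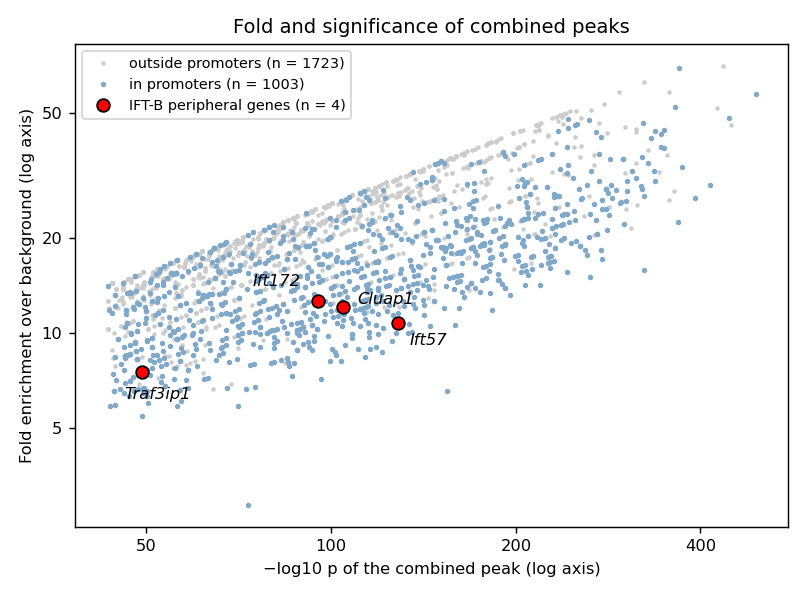
Fold enrichment over local background against −log10 p (both log axes) for 1723 combined peaks outside promoters (grey), 1003 in promoters (blue) and the peaks of 4 IFT-B peripheral genes (red). The red points lie in the lower part of the cloud, with Ift57 lowest of the 4 for its −log10 p and Ift172 nearest to the middle of the promoter peaks.

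Ift80 (ENSMUSG00000027778) encodes a subunit with WD repeats and lies on chromosome 3 from 68892499 to 69004570 on the minus strand. Its promoter peak in replicate 1 ran from 69004220 to 69004610, with a score of 3.19. It ranked 36531 of 39825, and 8.26% of the list scored lower. The peak also met the promoter of Smc4, which encodes a condensin subunit and is transcribed in the opposite direction. Smc4 was not bound in the combined list either. Within the promoter of the 5′-most TSS of Ift80 the best match to the palindrome had 5 mismatches.

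Ift20 (ENSMUSG00000001105), which encodes a small subunit found both at the Golgi apparatus and in the cilium, lies on chromosome 11 from 78536361 to 78541737 on the plus strand. Its promoter was free of listed peaks, as was that of Tnfaip1 in the combined list, a gene whose start lies in the opposite direction across a gap of 28 bp. This gap is shown with GGGCGG, read on the other strand, in capitals.
Ift20, chr11:78536333-78536360: acttcccgtgtcgtagtccCCGCCCcct
The best matches to the palindrome in the promoter of the 5′-most TSS of Ift20 had 4 mismatches and were found at 2 places. The first, with T3C, G4T, A7G and A13G, lay in the 5′ untranslated region, from 78536485 to 78536498. The other, with T3C, G4T, C6T and C11G, lay upstream of the gene, from 78535701 to 78535714. A match with 4 mismatches or fewer was present in 41.4% of all promoters of this length, and one with 3 or fewer in 8.96%. Within the promoter of the 5′-most TSS, neither Ift20 nor Ift80 had a match with 3 mismatches or fewer. The promoters of their other TSSs were not searched. The lists hold only peaks above the authors' thresholds, so weaker binding at these promoters was not measured.

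Other elements did not follow the split between bound and unbound genes. In the 300 bp from 250 bp before the 5′-most TSS, CCAAT on either strand was present once each at Ift57, Ift172, Cluap1 and Ift80 and not found at Traf3ip1 and Ift20, against 39.0% of all promoters. GGGCGG was found at 5 of the 6 genes, Cluap1 being the one without, against 43.0% of all promoters.

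The nearest peaks outside the promoters were then located in each list. The closest other combined peak lay 70.4 kb from the TSS of Ift172, beyond its 3′ end and at −52 bp from a start of Ppm1g. It lay 143.9 kb from the TSS of Ift80, beyond the 3′ end of that gene, and 265.7 kb from that of Traf3ip1. For Cluap1 the distance was 650.4 kb, for Ift20 −910.99 kb, on the upstream side, and for Ift57 1222.5 kb. No combined peak lay in the body of any of the 6 genes outside its promoter. In the replicate lists, Ift20 had a peak in an exon near its 3′ end in replicate 2, with a score of 5.08, and Ift57 and Traf3ip1 each had an intragenic peak in replicate 1, with scores of 6.82 and 4.86. The nearest other peaks of Ift172 lay upstream in an intron of Gckr at −18.2 kb in both replicates, with scores of 12.6 and 4.14. For Cluap1 the nearest other peak of replicate 1 scored 8.46 and lay at −78 bp from a start of Zfp174. The median score was 4.47 in the list of replicate 1 and 5.06 in that of replicate 2, so several of these peaks were above the middle of their list. Ift80 had 3 peaks in its body in replicate 1 and 1 in replicate 2. The share of all genes with a peak in the gene body was not computed, so these counts have no background beside them.

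The peripheral genes were compared with the other IFT genes on the basis of textbook lists. In the combined list 9 of 12 core IFT-B genes were bound, against 4 of 6 peripheral genes and 3 of 6 IFT-A genes, whose products carry retrograde transport. With a peak in both replicate lists as the criterion, the counts were 5 of 6 for IFT-A, 9 of 12 for the core and 4 of 6 for the peripheral genes. This criterion was met by 9.05% of all protein-coding genes, against 5.26% for the combined list. Over the genes bound in the combined list only, the median −log10 p was 99.8 for 4 peripheral, 107 for 9 core and 110 for 3 IFT-A genes. Unbound genes have no value and did not enter these medians. The medians of the bound genes lay close together, and the range within each group was wide. In the core, the highest value was 369 at Ttc30a2 and the lowest 44.0 at Ttc30a1, close copies of each other from which reads with several locations had been discarded, so that their values are uncertain. In IFT-A, Ift122 had 207 and Wdr19 46.1. Folds of the core genes ran from 11.6 to 69.5 and those of IFT-A genes from 8.45 to 14.2, beside 7.53 to 12.7 for the peripheral genes. No test was run on lists of this size, so no difference between the groups is claimed.

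**Figure D5:**
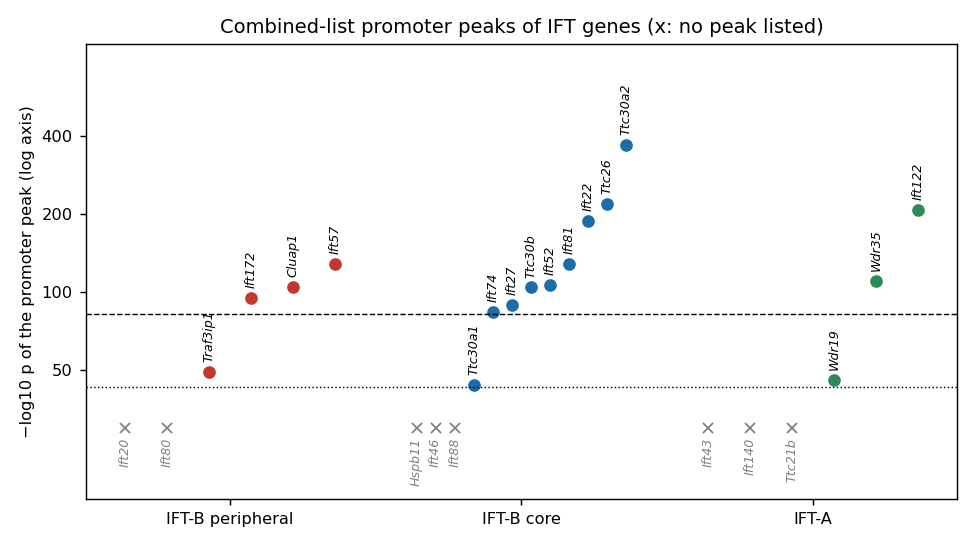
−log10 p of the combined promoter peak (log axis) for each gene of the peripheral and core parts of IFT-B and of IFT-A, ordered within each group, with crosses for genes without a combined promoter peak. The dashed line is the median of the list and the dotted line its lowest value. The 4 bound peripheral genes lie between 49.2 and 129, inside the range of the core genes.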

How the data were processed

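The authors sequenced 2 RFX2 ChIP replicates with 1 input each. Per the submitters' processing notes and the study's methods, reads were mapped to GRCm38 with Bowtie 0.12.7, reads with several locations were discarded, reads of human origin were removed from the second run of replicate 2, and peaks were called with MACS2 2.0.10.20130520 against input. Repeated sequence is therefore under-represented. Each peak of the deposited replicate lists carries a −log10 value, and whether this is of a p-value or q-value is not specified. The deposited combined list holds a score (10 times −log10 p, whole part), −log10 p, the fold (a ratio to local background) and the summit. A column of −log10 q was not used. The methods describe a cut by the irreproducible discovery rate between the replicates. Whether this list is that set is not stated. The methods count slightly fewer reproducible peaks than the 2726 of this list, of which 2723 were met by a peak in both replicate lists. If the list is that set, its peaks were also chosen for agreement between replicates.

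Gene models were 21938 protein-coding genes of GENCODE release M21 (Ensembl 96), with all annotated TSSs, whereas the lists name Ensembl release 70. Sequence came from GRCm38.p6. Overlaps and motif counts were made with Python 3.11.15, pysam 0.24.0 and SciPy 1.17.1 and tested on simulated data. All 6 genes and the exceptions among them are described in full, with genes sharing a peak and the extremes of the other IFT lists. The 6 genes and the other IFT lists were chosen with earlier results of these data known. No enrichment test was run. Alternatives covered the promoter, the threshold, the overlap, each replicate and the X-box.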

Additional observations from a re-analysis of the deposited data

How the results depend on the processing

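No paired analysis was possible because no values of the inputs were used and the results come from no test. Of 31 alternatives, 6 moved a result by more than 1.5 times, for a count, or by more than 1 SD between replicates, for another value. The other 25 stayed within these limits, some with a changed count, as follows. The number of bound genes in the combined list was 4 under each promoter definition and 3, without Traf3ip1, in the upper 50% of the list, where 8 core and 2 IFT-A genes were bound. The number bound in both replicates ran from 4 to 5 when either replicate was left out, Ift80 being added without replicate 2, and was 3, without Cluap1, at a reciprocal overlap of 50%. The number of bound genes with an X-box dropped from 3 to 1, Cluap1, with at most 2 mismatches, and was 4 with at most 4. It was 2 with the spaced words, an alternative chosen after seeing the data, and 2 around the peak centre. A part of the palindrome of 7 bases with at most 1 mismatch was present at all 4, but also in 37.0% of the windows to the right. The median position relative to the nearest TSS moved from −51.5 to −150.0 bp with the peak centre in place of the summit. Ranked by fold, the share of the list below each gene moved from 75.6% to 11.2% for Ift57, from 59.1% to 19.5% for Ift172, from 10.9% to 1.91% for Traf3ip1 and from 64.7% to 16.4% for Cluap1. The SD used for these moves was that of the share of each replicate list below the gene. Those lists are longer, and peaks near their top differ little in this share (SD 0.302 for Ift57). This limit was therefore easily passed. Ranks among promoter peaks alone, given above, also fell for each gene when fold was used. The cause of these moves was not tested. Precision is limited by 2 replicates and an unknown depth.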
